A study of Mus musculus with 3 samples.

Results

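The 9 genes *Tgm1*, *Tgm3*, *Evpl*, *Ppl*, *Krtdap*, *Dmkn*, *Sbsn*, *Sfn* and *Calml3* take part in, or mark, the cornified envelope but lie outside the epidermal differentiation complex, the gene cluster on mouse chromosome 3 that encodes most envelope precursors. They were chosen by gene symbol, and all 9 were found among the 18890 genes listed with an accessible region. Chromatin accessibility was profiled by ATAC-seq, in which a transposase cuts and tags open DNA, in organoids grown from primary basal cells of wild-type C57BL/6J mouse prostate. The basal cells were sorted from adult males as EpCAM+ CD49f-high cells, embedded in Matrigel and treated over 7 days. The treatments were vehicle, UK5099 at 10 µM and sodium lactate at 20 mM. UK5099 inhibits the mitochondrial pyruvate carrier. Each group held 1 library, so no difference has a replicate check and no p-value is given. Fewer open cells and less open chromatin per cell cannot be told apart in such bulk libraries.

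The cornified envelope is the sheet of crosslinked protein that replaces the plasma membrane of a keratinocyte at the end of its life. Envoplakin and periplakin, encoded by *Evpl* and *Ppl*, form an early scaffold under the membrane, and transglutaminases then link loricrin, small proline-rich proteins and other precursors onto it. The process is known from skin and other stratified squamous epithelia. Normal prostate epithelium does not cornify, although squamous change of prostate epithelium is known.

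The measure was the average peak height, the stacked reads at the highest bin of each region, averaged over all regions assigned to a gene and scaled by 1 factor per library. It is an average per region, so a long gene is not higher for its length. A single stacked read was worth 0.575 in the vehicle library, 1 in the UK5099 library and 0.471 in the lactate library. Provided that the scaling made depths equal, the vehicle and lactate libraries were 1.74 and 2.12 times as deep as the UK5099 library. Most genes lay above vehicle under both treatments, with a median ratio of 1.15 in UK5099 and 1.18 in lactate, and the median gene is therefore given as a second reference. Intervals after a ratio are 95% exact conditional (Clopper-Pearson) counting intervals. They cover counting error only and are narrower than the unknown spread between cultures. All 12 basal markers had a called peak in every library, where 94.2% to 96.3% of all genes had one, and their median ratio was 1.29 in UK5099 and 1.28 in lactate. The median of 10 listed luminal markers was 0.824 in UK5099 and 1.18 in lactate. Stromal, endothelial and immune markers were listed for 5 of 10, 7 of 8 and 6 of 9 genes, with medians in UK5099 of 1.07, 0.911 and 1.13. Whether a changed mix of cells has a part in the ratios below was not tested.

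The sequences below are the places on which the results turn, namely peaks that were called in only some libraries, peaks that several genes share, and a promoter with no called peak. All are from the plus strand of GRCm38.p6, which has the coordinates of mm10. Each peak window spans 200 bases around the median of the peak positions listed for a region. Each promoter covers the 250 bases before a RefSeq transcript start. Capitals mark matches, on either strand, to the AP-1 site (TGACTCA or TGAGTCA), the KLF box (CCACCC), the TATA box (TATAAA) or the p63 core, a pair of short p53-family cores 6 bases apart. The first is the *Krtdap* peak called in all 3 libraries.
Krtdap downstream peak, chr7:30795101-30795300: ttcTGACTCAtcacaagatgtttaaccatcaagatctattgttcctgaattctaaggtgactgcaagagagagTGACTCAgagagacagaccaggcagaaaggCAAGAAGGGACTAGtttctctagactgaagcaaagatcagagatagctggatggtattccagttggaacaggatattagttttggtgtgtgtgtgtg
The second *Krtdap* region was called in UK5099 and lactate and not in vehicle. Its listed peak positions run from 30796608 to 30796928. The printed window lies between these and holds neither, so it describes the middle of the region only.
Krtdap second downstream peak, chr7:30796669-30796868: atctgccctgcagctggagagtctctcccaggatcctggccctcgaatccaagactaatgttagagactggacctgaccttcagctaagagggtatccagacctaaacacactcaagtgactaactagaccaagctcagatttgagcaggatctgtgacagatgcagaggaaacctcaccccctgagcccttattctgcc
The *Krtdap* promoter had no called peak in any of the 3 libraries.
Krtdap promoter, chr7:30787655-30787904: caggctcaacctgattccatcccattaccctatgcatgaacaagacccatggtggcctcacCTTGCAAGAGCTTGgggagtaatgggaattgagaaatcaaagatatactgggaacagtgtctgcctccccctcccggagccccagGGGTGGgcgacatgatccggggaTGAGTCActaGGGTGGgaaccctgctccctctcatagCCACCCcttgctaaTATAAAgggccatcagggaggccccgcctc
The next peak lies between *Sbsn* and *Dmkn* and is assigned to both.
Sbsn and Dmkn shared peak, chr7:30759101-30759300: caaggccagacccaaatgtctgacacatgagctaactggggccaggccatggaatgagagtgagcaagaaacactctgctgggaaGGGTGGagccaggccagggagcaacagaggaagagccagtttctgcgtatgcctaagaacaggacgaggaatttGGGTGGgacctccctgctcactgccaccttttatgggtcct
A promoter inside *Dmkn* overlaps a peak called only in lactate.
Dmkn internal promoter, chr7:30776155-30776404: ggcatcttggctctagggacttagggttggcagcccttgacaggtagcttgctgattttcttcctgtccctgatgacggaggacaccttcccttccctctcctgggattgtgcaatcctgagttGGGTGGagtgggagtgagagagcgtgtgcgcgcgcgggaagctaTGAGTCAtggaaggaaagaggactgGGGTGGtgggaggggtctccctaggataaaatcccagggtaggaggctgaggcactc
Of the *Tgm3* peaks, 2 were called only in UK5099.
Tgm3 upstream peak, chr2:130005645-130005844: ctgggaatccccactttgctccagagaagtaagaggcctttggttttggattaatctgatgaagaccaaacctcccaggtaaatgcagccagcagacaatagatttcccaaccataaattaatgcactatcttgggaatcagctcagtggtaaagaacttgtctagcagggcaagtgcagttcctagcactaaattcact
Tgm3 intronic peak, chr2:130034461-130034660: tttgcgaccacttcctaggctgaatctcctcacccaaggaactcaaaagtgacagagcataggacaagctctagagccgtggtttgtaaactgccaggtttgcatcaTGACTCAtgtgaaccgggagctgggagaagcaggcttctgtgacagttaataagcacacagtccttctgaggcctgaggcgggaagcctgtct
The last is the *Tgm1* upstream peak called in all 3 libraries.
Tgm1 upstream peak, chr14:55715101-55715300: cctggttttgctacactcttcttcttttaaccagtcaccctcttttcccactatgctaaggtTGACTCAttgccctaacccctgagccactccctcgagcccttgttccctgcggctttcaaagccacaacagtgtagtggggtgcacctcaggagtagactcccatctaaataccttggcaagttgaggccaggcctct
The matches describe the letters only and name no bound factor.

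Accessibility of the envelope genes was higher in UK5099 than in vehicle for all 9 genes, as it was for 75.7% of all genes. Of the 9, 3 genes, *Tgm1*, *Tgm3* and *Krtdap*, reached the study's limit of 1.5-fold. The limit was reached by 1710 of 18889 genes, which is 9.05%. No member fell to 0.5-fold or less, where 1.36% of genes lay. The median ratio over the 9 genes was 1.43, which is 1.24 times the median gene, and 8 of 9 lay above the median gene. Over the 7 genes left without *Tgm3* and *Calml3*, which lay under the lower quartile of height, the median was 1.29. Of these 7 genes, 2 reached the limit. The counting interval excluded 1 for 7 genes, all but *Ppl* and *Calml3*, and lay wholly above the median gene for 5. Scaled by the median of ratios, 3 genes still reached the limit and *Ppl* lay below vehicle at 0.932.

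In lactate, 7 of 9 genes were above vehicle, where 83.1% of all genes were. There 1 gene, *Krtdap*, reached 1.5-fold, against 6.07% of all genes. None was at 0.5-fold or less, against 0.513% of all genes. The median ratio was 1.27, or 1.08 times the median gene, and 6 of 9 lay above the median gene. The intervals of 4 genes lay wholly above the median gene and that of 1 gene, *Tgm3*, wholly below it. Scaled by the median of ratios, *Krtdap* was at 1.45, so that no gene reached the limit, and *Evpl* lay at 0.991. Both comparisons share the vehicle library. In UK5099 against lactate the median was 1.13, and 2 genes, *Tgm3* and *Calml3*, reached 1.5-fold, where 3.71% of all genes did. None was at 0.5-fold or less, where 1.43% of genes were.

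**Figure D1:**
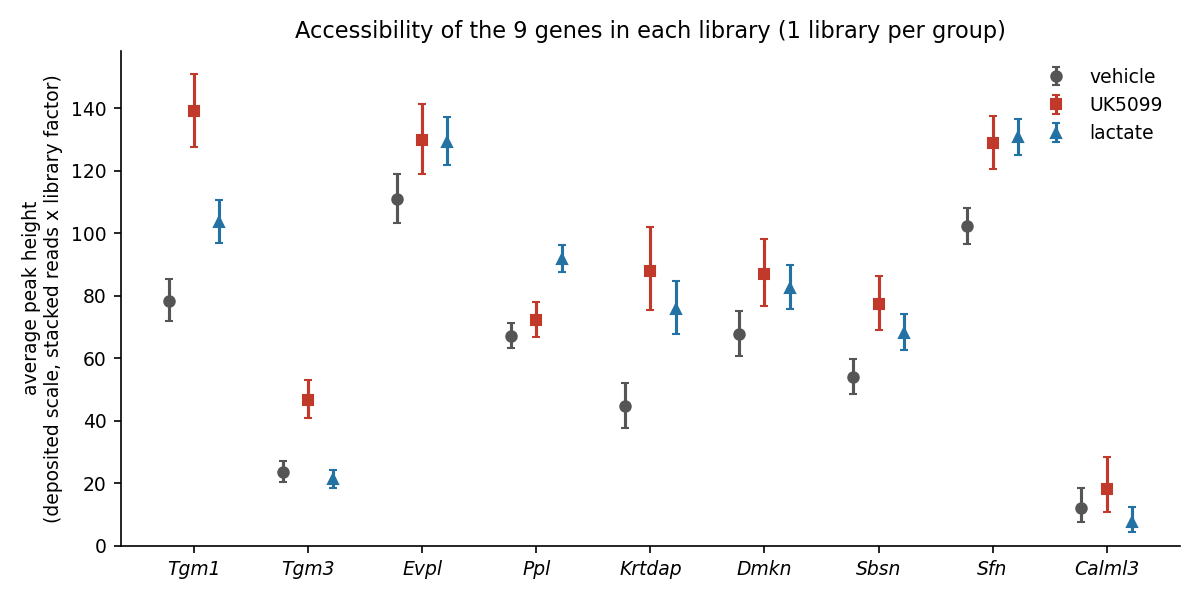
Average peak height (vertical axis, deposited scale) of each of the 9 genes in the vehicle (circle), UK5099 (square) and lactate (triangle) library, 1 library per group. Bars are 95% exact Poisson counting intervals of the stacked reads. The vehicle library is the lowest for 7 genes, and for *Tgm3* and *Calml3* the lactate library is the lowest.

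**Figure D2:**
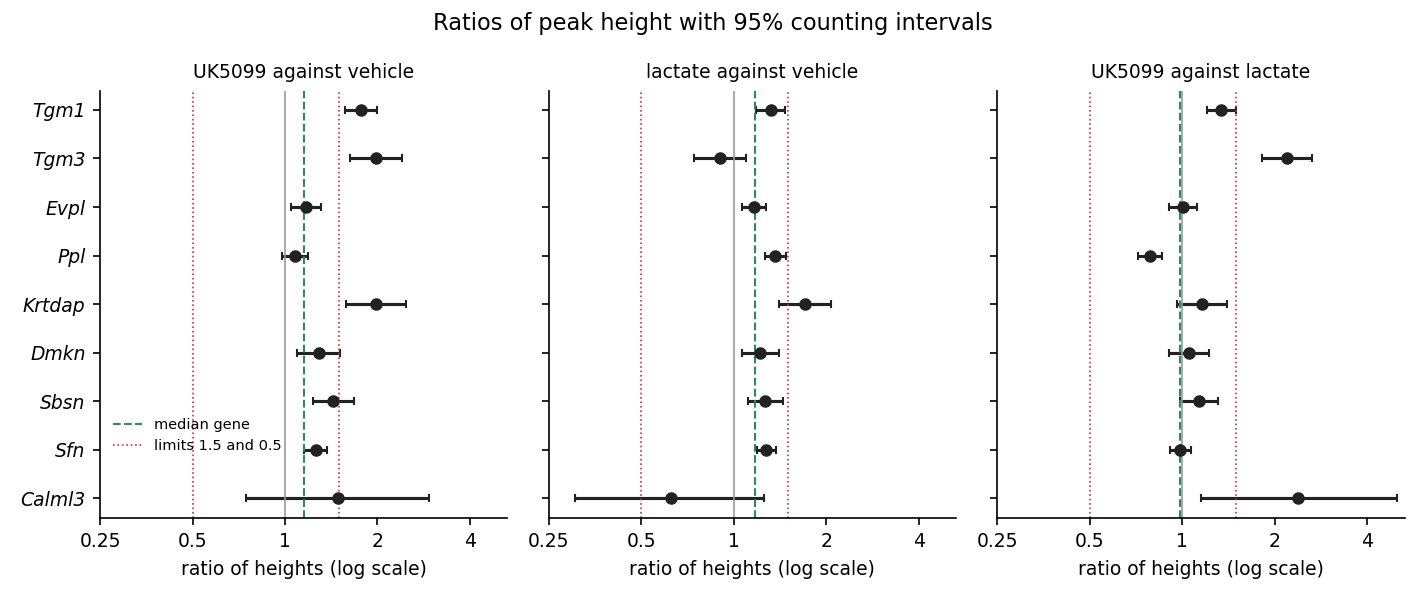
Ratio of heights (horizontal axis, log scale) for each gene in the 3 comparisons, with 95% exact conditional counting intervals. The dashed line is the median of all genes and the dotted lines are the limits of 1.5 and 0.5. *Tgm1*, *Tgm3* and *Krtdap* lie past 1.5 in UK5099 against vehicle, and *Krtdap* alone in lactate against vehicle.

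Of the crosslinking enzymes, *Tgm1* encodes the membrane-bound transglutaminase of keratinocytes, whose loss in humans causes lamellar ichthyosis. Its height in vehicle, UK5099 and lactate was 78.5, 139 and 104, on 546, 556 and 880 stacked reads. The UK5099 library was the highest and vehicle the lowest. The ratio to vehicle was 1.77 (1.57 to 2.0) in UK5099 and 1.32 (1.19 to 1.47) in lactate, and UK5099 was 1.34 times lactate (1.20 to 1.49). *Tgm1* lies on the minus strand of chromosome 14 (55700009 to 55713492, mm10). Peaks were called in all 3 libraries in an intron 10548 bp from the start, at 1708 to 1772 bp upstream, where the printed window holds an AP-1 match, and at 8524 to 8556 bp upstream. A peak 116 bp inside the start was called only in lactate, and one 876 bp upstream in vehicle and lactate. The last of the upstream peaks lies in an untranslated exon of *Rabggta*, which encodes a subunit of the enzyme that prenylates Rab proteins. The highest region of *Tgm1*, at 248 in UK5099, is also the highest region listed for *Rabggta*, and it held 44.6% of the summed *Tgm1* height in that library.

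*Tgm3* encodes a soluble transglutaminase of skin and hair follicle that is activated by proteolysis. Its height in vehicle, UK5099 and lactate was 23.6, 46.6 and 21.3, on 205, 233 and 226 stacked reads. UK5099 stood apart from the other libraries, which differed little. The ratio was 1.98 (1.63 to 2.40) in UK5099 and 0.904 (0.745 to 1.10) in lactate, and UK5099 was 2.19 times lactate (1.81 to 2.64). The gene had low heights, and its mean of 30.5 lay under the lower quartile of all genes, 36.2. *Tgm3* (chromosome 2, 130012374 to 130050399, plus strand) shares none of its 5 regions with another listed gene. Introns held the peaks called in all 3 libraries, 17674 and 28010 bp from the start. Those called in UK5099 alone lay 6630 bp upstream and 22186 bp into the gene, in an intron, while one at 7306 bp was called in vehicle alone. The printed intronic window of UK5099 holds 1 AP-1 match, and so does the window 17674 bp from the start, called in all 3 libraries. The upstream window holds none of the motifs. No peak was called at the start of the gene. The highest *Tgm3* region reached 87.0 in UK5099, and its other 4 regions averaged 36.5 there.

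Of 7 further transglutaminase genes sought, 5 were listed, and their median ratio was 0.969 in UK5099 and 1.15 in lactate. The number at 1.5-fold or more was 1 in UK5099, *Tgm6* at 1.58, and 2 in lactate. The mean height of *Tgm6*, 18.7, lay under the lower quartile of 36.2. *Tgm5*, which encodes another epidermal transglutaminase, had heights of 73.4 in vehicle, 70.0 in UK5099 and 114 in lactate, and *Tgm7* had 61.9, 60.0 and 93.3. Both were highest in lactate, with ratios of 1.55 and 1.51 there and of 0.954 and 0.969 in UK5099. Whether *Tgm5* and *Tgm7* share regions was not worked out, so they may not be 2 separate signals. *Tgm2*, which encodes the widely expressed tissue transglutaminase, was at 1.01 and 1.15.

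The plakin scaffold genes had the lowest ratios of the 9 in UK5099, but not in lactate. *Evpl* had heights of 111 in vehicle, 130 in UK5099 and 129 in lactate, on 772, 519 and 1097 stacked reads. Both treatments lay above vehicle to a similar extent, at 1.17 (1.04 to 1.31) in UK5099 and 1.16 (1.06 to 1.28) in lactate, close to the median gene. The ratio between the treatments was 1.0 (0.903 to 1.12). *Evpl* (chromosome 11, 116220559 to 116238091, minus strand) had a promoter peak, 117 to 149 bp upstream of its start, in all 3 libraries. A peak in an intron, about 9.07 kb from the start, was the only one of the 39 member regions that held the Grainyhead-like motif AACCGGTT. A peak 9621 bp upstream, in an intron of *Srp68*, was called only in UK5099. The tallest region, 310 in lactate, lies 1551 bp past the end of *Evpl* in an intron of *Cdk3-ps*. It is shared with *Ten1*, which encodes a telomere-capping protein, and made up 60.1% of the summed *Evpl* height in that library.

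*Ppl* had heights of 67.1 in vehicle, 72.2 in UK5099 and 91.8 in lactate, on 1051, 650 and 1753 stacked reads. It was the 1 gene of the 9 for which lactate exceeded UK5099 with an interval below 1, at 0.787 (0.718 to 0.862) for UK5099 against lactate. The ratio to vehicle was 1.08 (0.974 to 1.19) in UK5099 and 1.37 (1.27 to 1.48) in lactate. *Ppl* (chromosome 16, 5086291 to 5132481, minus strand) had a promoter peak 159 to 191 bp upstream in all 3 libraries. Peaks at 8865, 18593 and 21217 bp from the start, in introns, were called only in lactate, the deepest library, and a peak 46977 bp from the start, in an untranslated exon of the neighbour *Ubn1*, only in vehicle.

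Heights of smaller sets of regions were obtained for *Ppl*, *Sbsn* and *Dmkn* by subtracting the summed heights of neighbours that share regions. At the end of *Ppl* farthest from its start, the pair of regions shared with *Ubn1* had a summed height of 54.0 in vehicle, 41.0 in UK5099 and 96.1 in lactate. Lactate was the highest there and UK5099 the lowest. The ratios to vehicle were 0.759 (0.513 to 1.11) in UK5099 and 1.78 (1.39 to 2.30) in lactate, and UK5099 against lactate was 0.427 (0.297 to 0.599). The other 7 regions of *Ppl*, the promoter included, summed to 550 in vehicle, 609 in UK5099 and 730 in lactate. Their ratios were 1.11 (0.999 to 1.23) in UK5099 and 1.33 (1.22 to 1.44) in lactate, and 0.834 (0.759 to 0.917) between the treatments. Lactate thus lay above UK5099 in both sets of regions of *Ppl*, and UK5099 lay below vehicle only in the pair shared with *Ubn1*, with an interval that included 1.

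The other 5 plakins had medians of 1.34 in UK5099 and 1.29 in lactate. *Dsp*, which encodes the desmosomal plakin desmoplakin, was at 1.53 and 1.43, the only one of the 5 at 1.5-fold or more. *Plec*, which encodes plectin of hemidesmosomes and the cytoskeleton, was at 1.07 and 1.13.

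*Sbsn*, *Dmkn* and *Krtdap* lie next to each other on the plus strand of chromosome 7 and encode suprabasin, dermokine and keratinocyte differentiation-associated protein, secreted proteins of the suprabasal layers of stratified epithelium. All 3 genes were higher in both treatments than in vehicle. *Krtdap* (30787905 to 30791083) had the largest ratios of the 3. Its height in vehicle, UK5099 and lactate was 44.5, 88.0 and 75.9, on 155, 176 and 322 stacked reads. Vehicle was the lowest and the treated libraries were close, with an interval between them that included 1. The ratio was 1.98 (1.58 to 2.47) in UK5099 and 1.70 (1.40 to 2.08) in lactate, and 1.16 (0.960 to 1.40) between the treatments.

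Neither *Krtdap* region is at its start. The first, called in all 3 libraries, lies 7263 to 7295 bp from the start, which is beyond the end of the gene, and its window holds 2 AP-1 matches and 1 p63 core match. The second lies 8703 to 9023 bp from the start and was called in UK5099 and lactate. In UK5099 the higher region reached 132 and the other 44.0. The printed *Krtdap* promoter holds an AP-1 match, KLF boxes, a TATA box and a p63 core match, and no peak was called there. Of all RefSeq promoters of 300 bases, 5.20%, 31.5%, 13.6% and 7.22% hold these motifs, in that order. Both regions are assigned to *Krtdap* by distance, and no other listed gene holds them.

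*Dmkn* (30763756 to 30781066) had heights of 67.6 in vehicle, 87.0 in UK5099 and 82.6 in lactate, on 353, 261 and 526 stacked reads. Both treated libraries lay above vehicle. The ratio was 1.29 (1.09 to 1.51) in UK5099 and 1.22 (1.07 to 1.40) in lactate, and 1.05 (0.904 to 1.22) between the treatments. *Sbsn* (30751471 to 30756134) had heights of 53.9, 77.3 and 68.2, on 375, 309 and 579 stacked reads. The order was again vehicle, lactate and UK5099 from low to high. The ratio was 1.43 (1.23 to 1.67) in UK5099, 1.27 (1.11 to 1.45) in lactate and 1.13 (0.983 to 1.30) between them.

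Subtraction separated the region that *Sbsn* and *Dmkn* share from the other regions assigned to each gene. The shared region was the tallest of both genes, with a height of 135 in vehicle, 168 in UK5099 and 151 in lactate. It made up 54.4% of the summed *Sbsn* height and 64.4% of the summed *Dmkn* height in UK5099. Its ratio was 1.24 (1.01 to 1.52) in UK5099 and 1.12 (0.943 to 1.33) in lactate, near the median gene. The regions next to *Sbsn* gave larger ratios. The pair formed by the region 1455 bp upstream and the region at the start, 17 bp inside the gene, summed to 48.9 in vehicle, 94.0 in UK5099 and 81.5 in lactate. Its ratio was 1.92 (1.42 to 2.61) in UK5099 and 1.67 (1.28 to 2.19) in lactate. Both regions of this pair are also assigned to *C630016N16Rik*, so no region is assigned to *Sbsn* alone. The region 3375 bp upstream of *Sbsn*, shared with *Gapdhs* and *C630016N16Rik*, had 31.6, 47.0 and 40.0, or 1.49 (0.986 to 2.24) and 1.27 (0.892 to 1.81). The regions inside *Dmkn* summed to 67.8 in vehicle, 93.0 in UK5099 and 96.6 in lactate, with ratios of 1.37 (1.03 to 1.81) and 1.42 (1.13 to 1.80). The *Sbsn* average of 1.43 in UK5099 therefore combined a pair of regions at 1.92 with a tall shared region at 1.24. The intervals of these values overlap, and the difference between them was not tested. At the internal *Dmkn* promoter, 12564 bp from the listed start, a peak was called only in lactate, and the printed sequence holds an AP-1 match and KLF boxes.

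**Figure D3:**
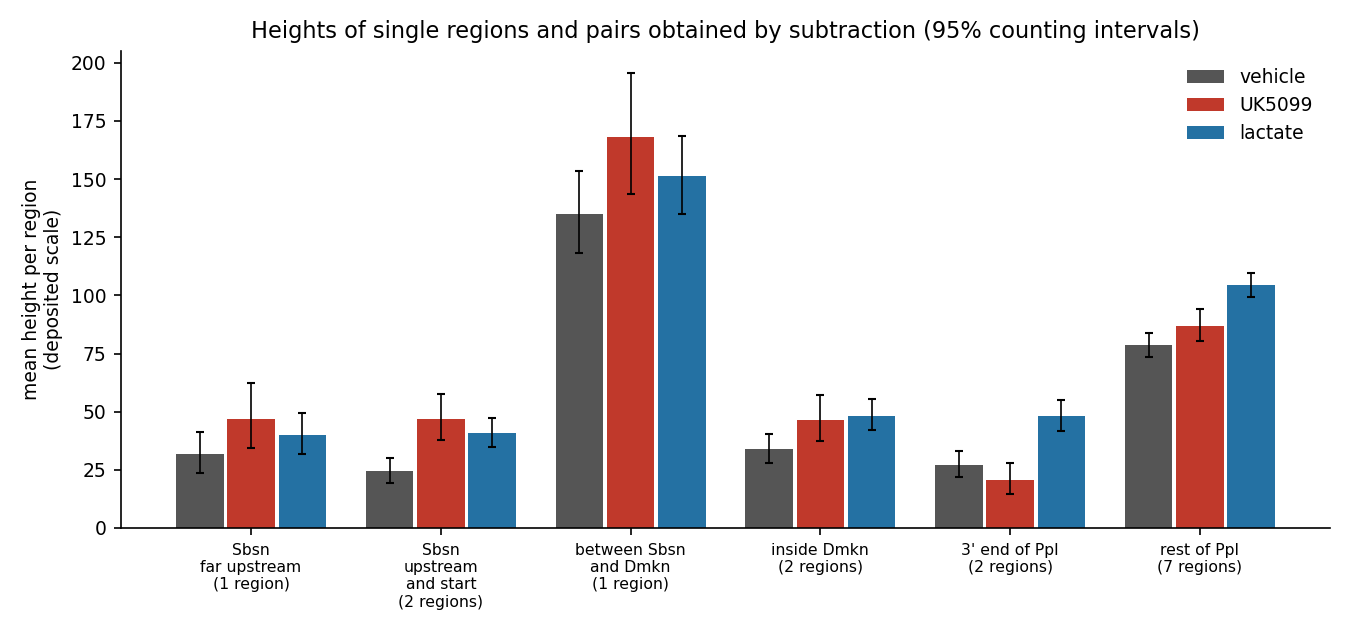
Mean height per region (vertical axis, deposited scale) of sets of regions near *Sbsn*, *Dmkn* and *Ppl* in the vehicle, UK5099 and lactate library, obtained by subtracting neighbours that share regions. Error bars are 95% exact Poisson counting intervals, and the number of regions stands under each set. The region between *Sbsn* and *Dmkn* is the tallest at 135, 168 and 151, and the 3′ pair of *Ppl* is the only set in which UK5099 is the lowest.

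*Sfn* encodes stratifin, the 14-3-3 protein of epithelial cells, which binds phosphorylated partners and is needed for normal keratinocyte differentiation in mice. Its height in vehicle, UK5099 and lactate was 102, 129 and 131, on 1245, 901 and 1941 stacked reads. The treated libraries differed little and lay above vehicle. The ratio was 1.26 (1.15 to 1.37) in UK5099 and 1.28 (1.19 to 1.37) in lactate, and 0.985 (0.909 to 1.07) between them. *Sfn* (chromosome 4, 133600556 to 133602168, minus strand) had peaks at its start and at 3336 bp upstream in all 3 libraries, and 3 more past its end. Its highest region, 265 in UK5099, is also that of *Gpn2*. Peaks 2152 bp upstream and 9304 bp from the start, beyond the gene end, were called only in lactate. The other 6 14-3-3 genes had medians of 1.21 in UK5099 and 1.18 in lactate, from *Ywhag* at 0.894 to *Ywhab* at 1.69 in UK5099.

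*Calml3* encodes a calmodulin-like protein of epithelial cells. It was the weakest of the 9, with heights of 12.1 in vehicle, 18.0 in UK5099 and 7.54 in lactate, on only 21, 18 and 16 stacked reads. The ratio of 1.49 (0.749 to 2.94) in UK5099 and of 0.625 (0.305 to 1.26) in lactate could not be told from 1 at this depth. Its single region lies 3010 bp upstream of the start (chromosome 13, 3802893 to 3804318, minus strand) and was called only in UK5099. UK5099 against lactate was 2.39 (1.15 to 5.01). Of 6 related calmodulins sought, 5 were listed, with medians of 1.37 and 1.14. *Calm4* and *Calm5*, which encode calmodulin-like proteins of skin, were at 1.47 and 1.5 in UK5099 and at 1.30 and 0.993 in lactate.

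The 9 genes together had 39 distinct regions called in at least 1 of the 3 libraries. Of these, 22 (56.4%) were called in all 3 libraries, against 60.8% of the 41807 regions in the table. Those called only in vehicle numbered 2 (5.13%, against 4.38%), those only in UK5099 4 (10.3%, against 6.55%) and those only in lactate 9 (23.1%, against 11.4%). Calls numbered 25 in vehicle (64.1%, against 75.6% of all regions), 27 in UK5099 (69.2%, against 76.4%) and 33 in lactate (84.6%, against 86.5%). Lactate was the deepest library. UK5099 had more calls than the deeper vehicle library among all regions too, with 31959 against 31591. Another listed gene shared 20 of the 39 regions. For 5 of the 9 genes, *Tgm1*, *Evpl*, *Ppl*, *Sbsn* and *Sfn*, a peak lay within 500 bp of the listed start, and for *Tgm1* and *Sbsn* it was called in lactate only.

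**Figure D4:**
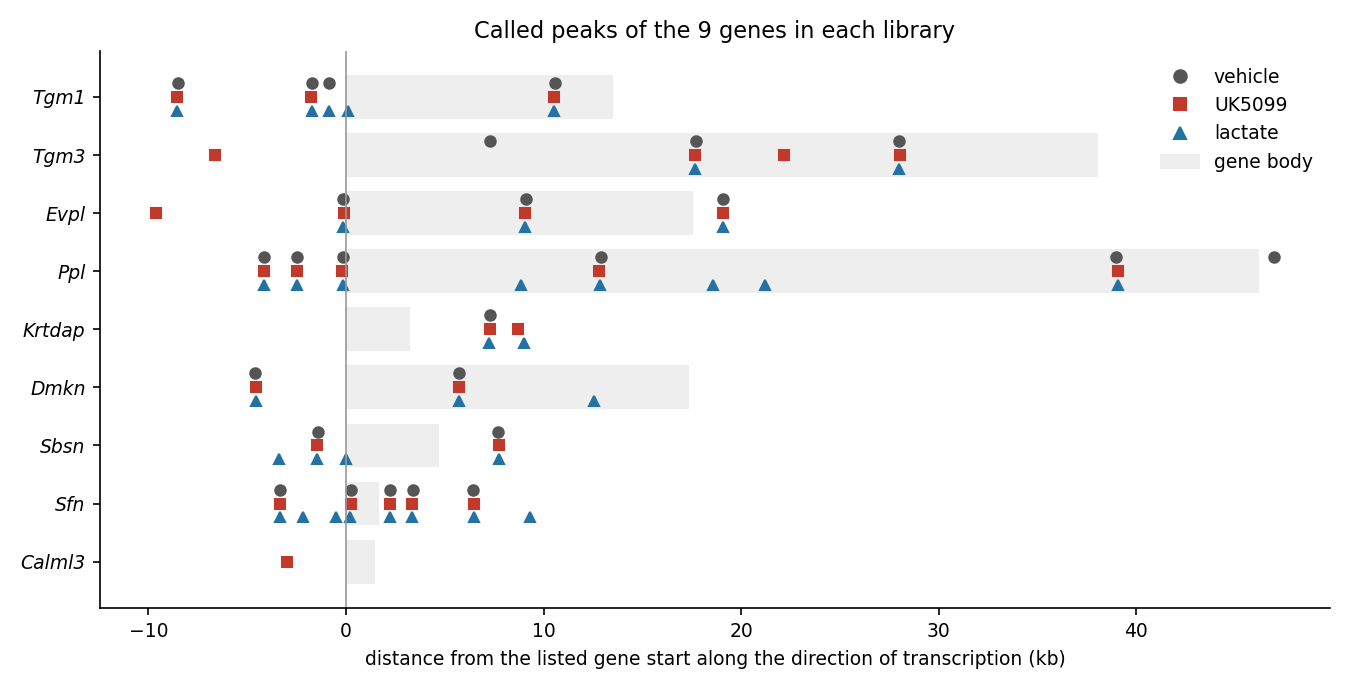
Called peaks of each gene (rows) by distance from the listed gene start in kb along the direction of transcription, with the gene body in grey. Circles are vehicle, squares UK5099 and triangles lactate. *Krtdap* has peaks only beyond its end, *Calml3* has a single UK5099 peak upstream, and *Tgm3* has none at its start.

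The AP-1 site occurred in 14 of the 39 windows of 200 bases (35.9%). Among the 27 regions called in UK5099 it occurred in 9 (33.3%), against 22.7% of all 32375 windows around UK5099 peaks and 5.20% of 32851 RefSeq promoters of 300 bases. The KLF box occurred in 12 of 39 windows (30.8%) and in 6 of the 27 called in UK5099 (22.2%), against 20.3% of the UK5099 windows. The p63 core occurred in 3 of 39 (7.69%) and 2 of 27 (7.41%), against 6.94%. The Grainyhead-like motif occurred in 1 of 39 (2.56%) and 1 of 27 (3.70%), against 0.232%, and 1 match is too few to compare. No member window held the TATA box, which was in 5.72% of the UK5099 windows. RefSeq promoters were matched for 6 of the 9 genes, and *Evpl*, *Ppl* and *Calml3* were not matched.

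Genes of the epidermal differentiation complex encode most envelope precursors, among them loricrin and the small proline-rich proteins that transglutaminases link. Of 48 sought, 28 were listed, and 15 of these were at 1.5-fold or more in UK5099 and 9 in lactate, where 9.05% and 6.07% of all genes were. *Lce3d* and *Lce3e*, which have identical values, are both counted. Of those at the limit in UK5099, only *Crnn*, *Kprp*, *Lce3f*, *Lor* and *Sprr3* had a mean height not under the lower quartile, 36.2. Among these, only *Crnn* exceeded 36.2 in vehicle, at 40.2. The vehicle heights of *Kprp*, *Lce3f*, *Lor* and *Sprr3* were 19.5, 27.0, 26.4 and 28.7. *Sprr3*, at 99.0 in UK5099 and 32.5 in lactate, passed the quartile only through its UK5099 height. Most ratios at the limit thus rest on low heights. The median of the complex genes was 1.63 in UK5099, above the 1.43 of the 9 genes. In lactate it was 1.18, below the 1.27 of the 9 genes. Among genes not under the lower quartile of height, *Kprp*, a proline-rich keratinocyte protein gene, had 19.5 in vehicle, 71.0 in UK5099 and 29.7 in lactate. Its ratio in UK5099 was 3.63, and it passed the quartile only through its UK5099 height. *Sprr2k* and *Sprr1b*, small proline-rich protein genes with identical values, were lowest at 1.04. In lactate *Crnn*, which encodes cornulin, was highest at 2.42, and the late cornified envelope genes *Lce1a1* and *Lce1b*, with identical values, were lowest at 1.0. Suprabasal keratins and corneodesmosome genes had medians of 1.38 and 1.28, with 7 and 4 of 15 at 1.5-fold or more. *Krt77*, a keratin of sweat ducts and suprabasal skin, was at 2.22 and 1.98, and *Cdsn*, which encodes the corneodesmosome protein corneodesmosin, at 0.896 and 0.985. Regulators of cornification had medians of 1.31 and 1.29, with 3 and 2 of 15 at the limit. *Zfp750*, a transcription factor of terminal epidermal differentiation, was at 2.13 and 1.43 and *Grhl3*, a Grainyhead-like factor of the skin barrier, at 1.73 and 1.41, whereas *Klf4*, a barrier regulator, was at 0.948 and 1.09. Genes of the lipid envelope had medians of 1.16 and 1.25, with 5 and 3 of 19 at 1.5-fold or more. Of these, *Abca12*, *Lipn* and *Nipal4* in UK5099, and *Lipn* and *Nipal4* in lactate, lay under the lower quartile of height. *Lipm*, an epidermal lipase gene, was at 1.69 (1.39 to 2.04) in UK5099. *Smpd1*, which encodes acid sphingomyelinase, was at 0.676 there, with an interval that included 1 (0.438 to 1.02). Cornification proteases and inhibitors had 1.22 and 1.34, with 4 and 3 of 11 at the limit and 1 at 0.5-fold or less in UK5099. The genes past a limit in UK5099, *Casp14*, *Klk7*, *Klk8*, *Spink5* and *Cst6*, all lay under the lower quartile of height. Their ratios ran from *Cst6* at 0.487 to *Casp14* at 4.96. Among the others, *Serpinb5*, which encodes maspin, was highest at 1.28 and 1.38. *Prss8*, which encodes the channel-activating protease prostasin, was lowest in UK5099 at 0.953.

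**Figure D5:**
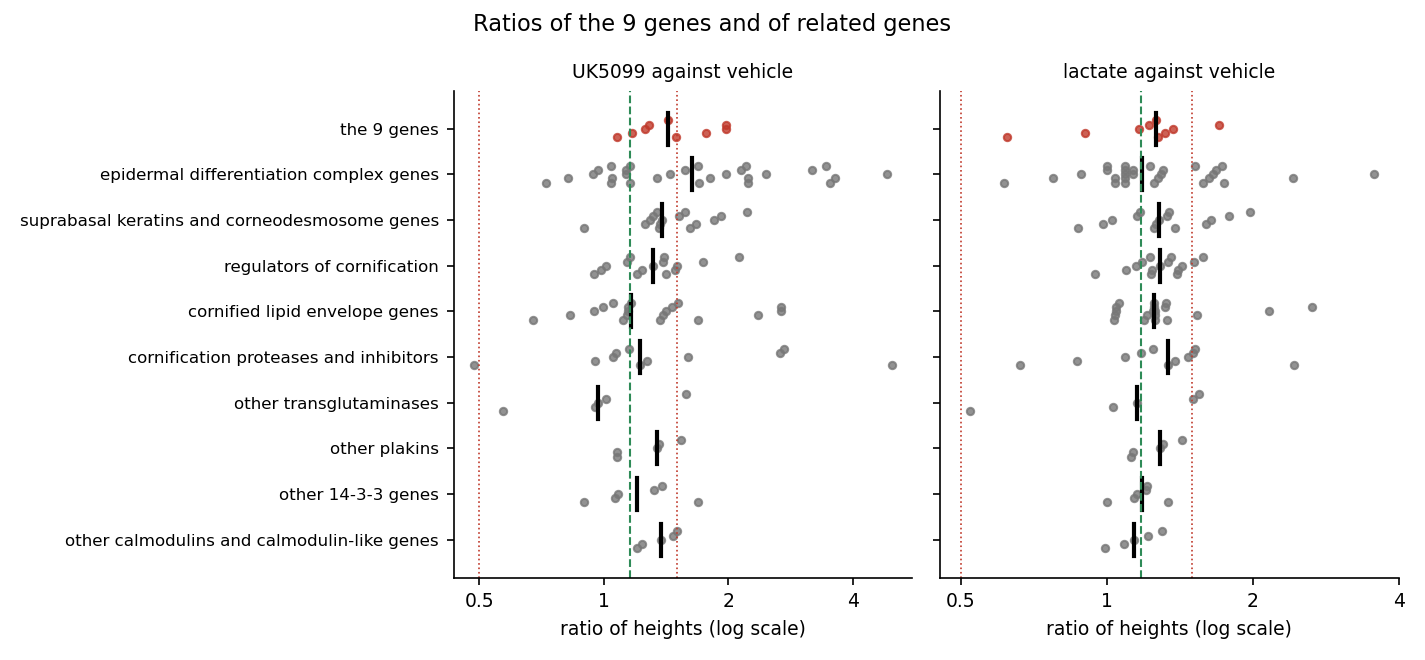
Ratio of heights to vehicle (horizontal axis, log scale) in UK5099 (left) and lactate (right) for the 9 genes and for related gene lists (rows). Points are genes, black bars are list medians, the dashed line is the median of all genes and dotted lines are the limits of 1.5 and 0.5. In UK5099 the median of the 9 genes is 1.43 and that of the epidermal differentiation complex 1.63, and in lactate they are 1.27 and 1.18.

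By distance over the log2 ratios to vehicle, the genes nearest to the median of the 9 were *Zfyve1*, *Mll2*, *Naa25*, *Vkorc1l1* and *Snrnp70*, over 3 libraries. Within a distance of 0.1 there were 531 genes.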

How the data were processed

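Per the study's methods, cryopreserved cells were tagmented by a sequencing company. Reads were aligned with BWA to mm10, duplicates and ambiguous reads were removed, and reads were extended and stacked in bins of 32 bp. The submitters' processing notes name MACS3, the study's methods an earlier MACS. Any shift of reads for the transposase offset is not stated. The signal that the authors deposited is the average peak height per gene over its merged regions, also built with peaks of a library not analysed here. The deposited table also lists called peaks per library and the highest signal per gene. Heights times regions divided by the step gave whole stacked reads for at least 99.99% of genes within 0.05. These are coverage at a maximum, not separate fragments, and no count test across genes was run. The intervals treat stacked reads as independent and are therefore too narrow.

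Ratios of heights were taken with no pseudocount. Genes at 1.5 or more and 0.5 or less were counted, the study's limits. The members and lists were chosen with earlier results of these data known. Named genes are the 9 members, genes sharing a region with them, and the highest or lowest of a list among genes not under the lower quartile of height. The 5 nearest genes among those at or above the median height of 56.7 are named too. *Tgm2*, *Tgm6*, *Grhl3*, *Lce3d*, *Lce3e*, *Lce3f*, *Lor*, *Abca12*, *Lipn*, *Nipal4*, *Casp14*, *Klk7*, *Klk8*, *Spink5* and *Cst6* were named after their values were seen. Peaks within 800 bp were joined into regions, which gave the listed number of regions for 17045 genes (90.2%). *Tgm1* is an exception, with 4 listed regions and peaks at 5 places. A region set's height is the difference of summed heights between genes. Among 4613 nested gene pairs no difference was negative, and in 797 of 797 testable pairs it equalled the listed highest height within 1 read. Positions were placed on GENCODE M21. Promoters came from RefSeq (GRCm38.p6). Alternatives were 2 pseudocounts (5.63 and 56.3), a filter at the lower quartile of height, 2 scalings, other limits and called peaks per gene. The computation was tested on simulated data. Python 3.11.15, pandas 2.3.3, numpy 2.4.6, scipy 1.17.1 and matplotlib 3.10.9 were used.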

Additional observations from a re-analysis of the deposited data

Results flagged for a closer look

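*Tgm3* and *Calml3* lay on opposite sides of vehicle in UK5099 and lactate. For *Tgm3* the ratio was 1.98 in UK5099 and 0.904 in lactate, and UK5099 was 2.19 times lactate. For *Calml3* it was 1.49 and 0.625, and UK5099 was 2.39 times lactate, on 18 and 16 stacked reads. With 1 library per group the difference was not tested. The counting intervals of the lactate ratios of both genes included 1.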

How the results depend on the processing

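With 1 library per group no library could be left out. No paired analysis was possible because each group held 1 library and the values come from no test. With a pseudocount of the median height (56.3) the median ratio of the 9 genes was 1.17 in UK5099 against vehicle, and the number at 1.5-fold or more was 0 in all 3 comparisons. Scaling to the same total and scaling by the median of ratios each gave a median of 1.08 in lactate against vehicle and 0 genes at 1.5-fold or more. With the inverse of 1.5 as lower limit, 1 gene was counted as lower in lactate. The filter at the lower quartile of height left 0 genes at 1.5-fold or more in UK5099 against lactate. With called peaks per gene as the measure, the median was 1 in UK5099 against vehicle and 0.646 in UK5099 against lactate, where 1 gene lay at or over 1.5-fold and 1 at or under 0.5-fold. The number at 1.5-fold or more was then 1 in UK5099 and 4 in lactate against vehicle, and *Tgm1* turned to 0.75 in UK5099. Of 27 ratios of single genes, 27 stayed within the counting interval with a pseudocount of 5.63, 18 with 56.3, and 17 with each scaling. With called peaks per gene, only 6 of 24 ratios stayed within it, 17 fell outside and 1 was reversed. *Calml3* gave no ratio by called peaks. Low stacked reads limit *Calml3* most.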
